A study of Homo sapiens with 9 samples.

Results

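The mRNAs of 10 glycolytic enzymes, HK1, HK2, GPI, PFKL, ALDOA, TPI1, GAPDH, PGK1, ENO1 and LDHA, were followed in an RNA immunoprecipitation experiment on the CCR4-NOT complex. The genes were taken by symbol from a table of 30956 genes, in which all 10 had a row. RNA bound to V5-tagged CNOT7, a nuclease subunit of the complex that carried a substitution impairing catalysis, was sequenced from the human embryonic kidney line HEK293T (named HEK293 in the design text). The series holds 9 libraries of cytoplasmic RNA: 3 immunoprecipitates (RIP), 3 inputs whose cells had received doxycycline (3 µg/mL, 24 h), and 3 inputs whose cells had not. The table gives values for the 3 RIP libraries and for 3 inputs whose names fit both kinds of input. These 3 are therefore called input, with their doxycycline state unknown, and whether the RIP cells had received it is likewise unknown. All libraries share the cell line and depletion of ribosomal RNA. Nonspecific recovery was not measured, since untagged cells were not analysed here.

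CCR4-NOT removes poly(A) tails from mRNAs in the cytoplasm, which exposes them to decapping and decay or lowers their translation. Glycolysis splits glucose into pyruvate in the cytosol. Hexokinases, glucose-6-phosphate isomerase, phosphofructokinase, aldolase and triosephosphate isomerase prepare the sugar, and the later enzymes recover ATP and NADH before lactate dehydrogenase reoxidises NADH. Its housekeeping mRNAs are abundant and are known as long-lived in most cultured cells, whereas hexokinase 2 and several regulators of flux are inducible.

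The libraries held 37140622 to 40764899 reads in genes for RIP and 37290120 to 38918356 for input. Mitochondrially encoded genes took 0.931% to 1.12% of the RIP reads and 18.6% to 26.6% of the input reads. RIP replicate 2 had 14786 genes without a read, against 6720 and 6398 in the other two. CNOT7 itself, which includes the tagged bait, had 79593, 81128 and 100226 normalized counts in RIP against 24412, 24627 and 25361 in input, and a derived mean of 4240 in the 3 inputs that have no column of their own. Groups were taken from the labels only, so these levels were not used to assign a doxycycline state. Normalized counts are reads divided by the authors' size factor for each library. All 7 markers fixed for the HEK293 line (among them PAX2, NEFM, VIM, KRT8, KRT18 and LIN28B) were detected, with summed normalized counts of 39437 to 42555 in input and 25196 to 25446 in RIP. ALB and PECAM1, markers of liver and endothelium, summed to at most 10.5 in input and 16.6 in RIP, and the leukocyte markers PTPRC and CD3E had no row under their symbols.

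RIP was compared with input to ask which RNAs associate with the complex. For the glycolytic enzymes, 9 of 10 mRNAs lay below input and 1, HK2, did not pass the test in either direction (limma, Benjamini-Hochberg adjusted p under 0.05 over 16765 genes). Of all tested genes, 21.2% were called below input and 22.4% above. The median log2 fold of the 10 genes was -1.58, against -0.043 for all tested genes. Each of the 9 was recovered at 20.9% to 48.8% of its input level, a log2 fold of -1 or lower, which 10.6% of tested genes reached with a call. For the same 9, every RIP library lay below every input library, as for 27.3% of tested genes, and no enzyme had every RIP library above every input, as 27.4% of tested genes did. Among genes with a mean of at least 1000 normalized counts, 8 of 9 enzymes (all but ALDOA have that level) were called below input, against 35.4% of such genes, and 0 above, against 34.7%. A value below input means lower recovery in RIP relative to input, and is not a measure of how abundant the mRNA is in cells. The libraries are bulk, so recovery from fewer cells and lower recovery per cell cannot be told apart. Whether the replicates were independent cultures is unstated, and the p-values cover only the variation among these libraries, which may be technical. Scaling by total reads in place of the authors' size factors raised the median log2 fold of all genes by 0.49. The same 9 genes were then still called below input, against 9.86% of tested genes, while HK2 was called above (log2 fold 0.66, adjusted p = 0.015 by limma), against 36.7%. HK1 (-0.54), PGK1 (-0.60) and PFKL (-0.77) no longer reached a log2 fold of -1. With totals that left out mitochondrially encoded genes, the median of all genes moved by 0.14, the 9 genes were again below input, and HK2 was not called (0.30, limma adjusted p = 0.21). HK1 (-0.90) and PGK1 (-0.96) fell short of -1 there too.

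**Figure D1:**
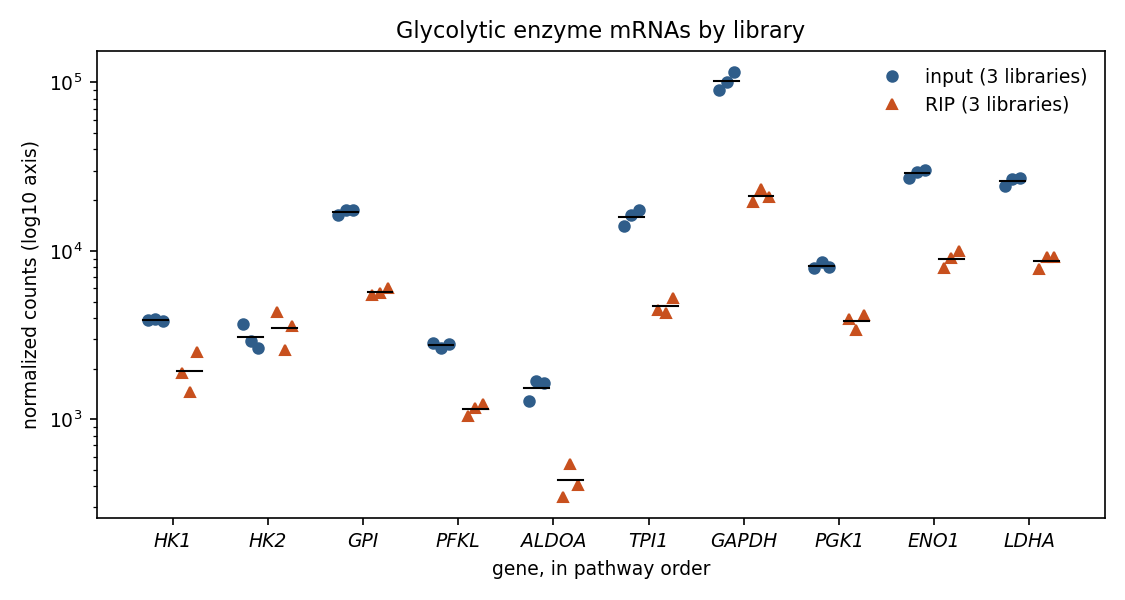
Normalized counts (log10 axis) of the 10 glycolytic enzyme mRNAs in each of 3 input libraries (circles) and 3 RIP libraries (triangles), with horizontal lines at the group means. The RIP and input libraries are separate for every gene but HK2, and GAPDH has the widest gap, from a mean of 101905 in input to 21282 in RIP.

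The bases just before the start of 4 of the 10 genes are shown, credited to RefSeq (GRCh38.p14). Whether these bases bear on recovery in RIP was not tested. Capitals mark ACGTG on either strand (CACGT when it is on the other strand), a form of the core of the element that hypoxia-inducible factors bind. The other form, GCGTG, was neither searched for nor marked. Both strands match in CACGTG, the E-box, so those letters count as 2 overlapping matches. HK2, the gene not called, is set beside LDHA, PGK1 and ENO1, which lay below input, and each line gives the 250 bases before the gene's start, 5′ to 3′.
HK2 (chr2:74833877-74834126, plus strand): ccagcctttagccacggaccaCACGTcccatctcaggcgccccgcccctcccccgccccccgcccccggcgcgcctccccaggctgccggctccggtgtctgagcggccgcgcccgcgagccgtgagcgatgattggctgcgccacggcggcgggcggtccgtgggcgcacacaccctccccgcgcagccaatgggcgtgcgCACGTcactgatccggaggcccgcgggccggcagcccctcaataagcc
LDHA (chr11:18394313-18394562, plus strand): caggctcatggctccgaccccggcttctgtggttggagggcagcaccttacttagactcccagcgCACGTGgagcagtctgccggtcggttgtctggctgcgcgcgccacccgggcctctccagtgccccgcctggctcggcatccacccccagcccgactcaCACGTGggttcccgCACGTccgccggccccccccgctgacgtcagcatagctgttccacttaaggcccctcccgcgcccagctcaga
PGK1 (chrX:78103998-78104247, plus strand): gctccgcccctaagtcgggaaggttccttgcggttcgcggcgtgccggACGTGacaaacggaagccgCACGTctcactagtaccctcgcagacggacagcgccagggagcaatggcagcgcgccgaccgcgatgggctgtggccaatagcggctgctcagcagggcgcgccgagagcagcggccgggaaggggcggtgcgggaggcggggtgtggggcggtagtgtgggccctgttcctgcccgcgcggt
ENO1 (chr1:8878687-8878936, minus strand): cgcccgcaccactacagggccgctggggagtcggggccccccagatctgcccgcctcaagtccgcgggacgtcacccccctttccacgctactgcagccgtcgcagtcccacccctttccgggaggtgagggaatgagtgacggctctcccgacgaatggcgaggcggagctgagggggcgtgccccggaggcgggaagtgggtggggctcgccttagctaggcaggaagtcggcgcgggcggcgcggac

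HK2 held 2 matches in this window, at 229 and 48 bases before the start, LDHA held 5, PGK1 held 2 and ENO1 held 0. At their other RefSeq starts, not shown, HK2 held 4 matches (chr2:74834920-74835169) and LDHA held 0 (chr11:18396101-18396350). The contrast between these genes thus depends on the start taken. Over the starts in the RefSeq promoter table, which need not include every start of a gene, 7 of the 10 genes had at least 1 match in a window of 250 bases (10 of their 21 windows), against 18.5% of all 35116 windows and 21.7% of the 27305 genes with one. TATAAA was in none of the 21 windows and in 10.7% of all windows. The background was not matched for GC content or for the number of starts per gene, so these shares are descriptions. HK1, PFKL and ENO1 were the members with no ACGTG match in any window. Since GCGTG was not counted, this does not show that they lack the core of the element.

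The hexokinases, which trap glucose in the cell as glucose 6-phosphate, differed from each other. HK1 (ENSG00000156515, chromosome 10, 69270000 to 69401882, GRCh38.p14), the form most tissues express, had 1873, 1442 and 2517 normalized counts in RIP and 3878, 3958 and 3824 in input. The RIP libraries were spread widely and all lay below the input libraries, which were close together. RIP held 48.8% of the input level, a log2 fold of -1.04 (SE 0.18, limma adjusted p = 0.00050). HK2 (ENSG00000159399, chromosome 2, 74834127 to 74893359), the inducible form, had 4330, 2591 and 3562 in RIP and 3689, 2902 and 2646 in input. Its groups overlapped: RIP replicate 2 was lower than every input library and RIP replicate 1 higher than every one. The log2 fold of HK2 was 0.17 (95% interval -0.24 to 0.58, limma adjusted p = 0.51), and it was -0.0049 without RIP replicate 1.

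The enzymes that turn glucose 6-phosphate into triose phosphates all lay below input. GPI (ENSG00000105220, chromosome 19, 34359718 to 34402413), which isomerises glucose 6-phosphate to fructose 6-phosphate, had 5485, 5653 and 6005 in RIP and 16268, 17467 and 17536 in input. Its log2 fold was -1.58 (SE 0.11, limma adjusted p = 9.6e-07), with the smallest SE of the 10 genes. PFKL (ENSG00000141959, chromosome 21, 44300053 to 44327373), the liver-type subunit of phosphofructokinase, the committed step, had 1047, 1167 and 1224 in RIP and 2817, 2637 and 2796 in input. RIP held 41.6% of the input level of PFKL, a log2 fold of -1.26 (SE 0.13, limma adjusted p = 1.5e-05).

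ALDOA and TPI1 complete the preparatory phase. ALDOA (ENSG00000149925, chromosome 16, 30064279 to 30070420), the aldolase of muscle and most proliferating cells, had 347, 545 and 409 in RIP and 1291, 1681 and 1643 in input. Its log2 fold was -1.84 (SE 0.21, limma adjusted p = 2.7e-05), with the largest SE of the 10. In RefSeq another protein-coding gene, LOC112694756, overlaps 6136 bases of the ALDOA span, and how the authors' counting treated reads in both was not tested. TPI1 (ENSG00000111669, chromosome 12, 6867420 to 6870948), which interconverts the triose phosphates, had 4444, 4293 and 5278 in RIP and 14023, 16427 and 17384 in input. RIP held 29.3% of the input level of TPI1, a log2 fold of -1.77 (SE 0.13, limma adjusted p = 1.2e-06).

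GAPDH, the NADH-forming dehydrogenase that opens the payoff phase, lay farthest below input. GAPDH (ENSG00000111640, chromosome 12, 6534517 to 6538371) had 19564, 23447 and 20833 normalized counts in RIP and 89818, 100436 and 115461 in input. The RIP libraries were well apart from the inputs, at 20.9% of their level. The log2 fold was -2.26 (SE 0.14, 95% interval -2.56 to -1.95, limma adjusted p = 6.8e-07), at the 4.18th percentile of all tested genes. GAPDH supplied 47.0% to 50.9% of the reads of the 10 genes in input and 33.0% to 38.5% in RIP, a share on which the scaling between libraries has no bearing. GAPDH is often used to normalise measurements between samples, and here its value relative to the authors' size factors differed between RIP and input by 4.78-fold.

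The remaining payoff enzymes also lay below input. PGK1 (ENSG00000102144, chromosome X, 78104248 to 78129295), the first ATP-forming enzyme of the pathway, had 3923, 3394 and 4180 in RIP and 7935, 8595 and 8016 in input. Its log2 fold was -1.10 (SE 0.12, limma adjusted p = 1.8e-05), close to that of HK1. ENO1 (ENSG00000074800, chromosome 1, 8861000 to 8878686), the ubiquitous enolase, had 7901, 9123 and 9990 in RIP and 27055, 29219 and 30229 in input. RIP held 31.1% of the input level of ENO1, a log2 fold of -1.68 (SE 0.12, limma adjusted p = 1.3e-06). LDHA (ENSG00000134333, chromosome 11, 18394563 to 18408425), which reduces pyruvate to lactate, had 7850, 9171 and 9212 in RIP and 24433, 26583 and 27128 in input. Its log2 fold was -1.58 (SE 0.12, limma adjusted p = 1.4e-06), equal to that of GPI within 0.0034 (95% interval of the difference -0.15 to 0.15).

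**Figure D2:**
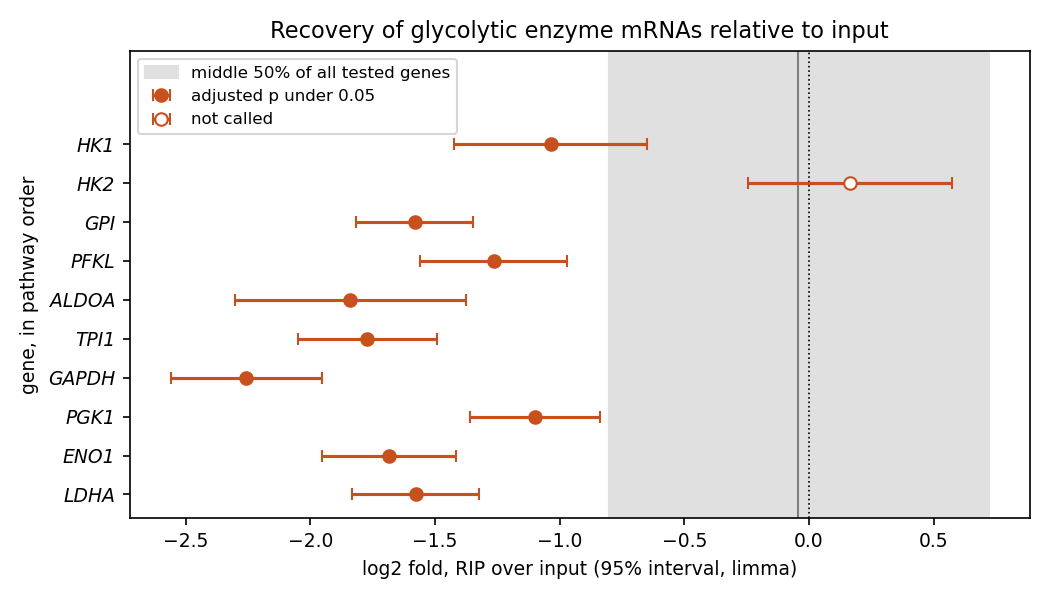
Log2 fold of RIP over input for the 10 genes in pathway order, with 95% intervals from limma over 3 RIP and 3 input libraries; filled points passed the test and the open point did not. The grey band spans the middle 50% of all tested genes (-0.80 to 0.72), and the grey line is their median. All points but HK2 lie left of the band.

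Ordered by their folds, the genes ran from GAPDH through ALDOA, TPI1, ENO1, GPI, LDHA, PFKL, PGK1 and HK1 to HK2. The difference between neighbours was taken within each library, as the log2 ratio of the 2 genes in RIP minus that in input, which removes the scaling. Since the same folds set the order, no difference could be negative, and the intervals are not adjusted for the 9 steps. They are therefore descriptions. The interval lay above 0 at 3 of the 9 steps: from GAPDH to ALDOA (0.42, 95% interval 0.038 to 0.80), from LDHA to PFKL (0.31, 0.12 to 0.50) and from HK1 to HK2 (1.20, 0.51 to 1.89). At the other steps the intervals held 0 and the libraries overlapped. The order was not that of the pathway: both hexokinases, of the first step, stood at the high end, and PGK1, which acts between GAPDH and ENO1, lay less far below input than either.

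Across the RIP libraries, replicate 3 was the highest for 7 of the 10 genes and the lowest for 0. Replicate 1 was the lowest for 6 and replicate 2 for 4. Among the inputs, replicate 1 of the table was the lowest for 7 genes. None of these differences between libraries changed the count of genes below input, which stayed at 9 when any 1 library was left out.

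Isoenzymes of the same step were compared next, each as the ratio of 2 genes within a library, so that the scaling has no part in it. With 3 libraries against 3 an exact permutation test cannot go below p = 0.10, and 6 pairs were tested. The ratio of HK2 to HK1 was 1.21, 0.85 and 0.50 on the log2 scale in RIP and -0.072, -0.45 and -0.53 in input. All RIP libraries lay above all inputs, with a difference of 1.20 (SE 0.25, exact permutation test, two-sided, p = 0.10, 0.15 adjusted over the pairs). ENO2, the neuronal enolase, differed most from its partner: its log2 ratio to ENO1 was higher in RIP than in input by 2.19 (SE 0.14, exact permutation p = 0.10, adjusted 0.15). The platelet- and muscle-type phosphofructokinases PFKP and PFKM were higher relative to PFKL by 0.83 (SE 0.13) and 0.32 (SE 0.082), again with no overlap of the libraries and the same p (exact permutation, 0.10, adjusted 0.15). ALDOC relative to ALDOA (0.40, 95% interval -0.66 to 1.46) and LDHB relative to LDHA (-0.99, -2.64 to 0.66) overlapped between RIP and input.

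**Figure D3:**
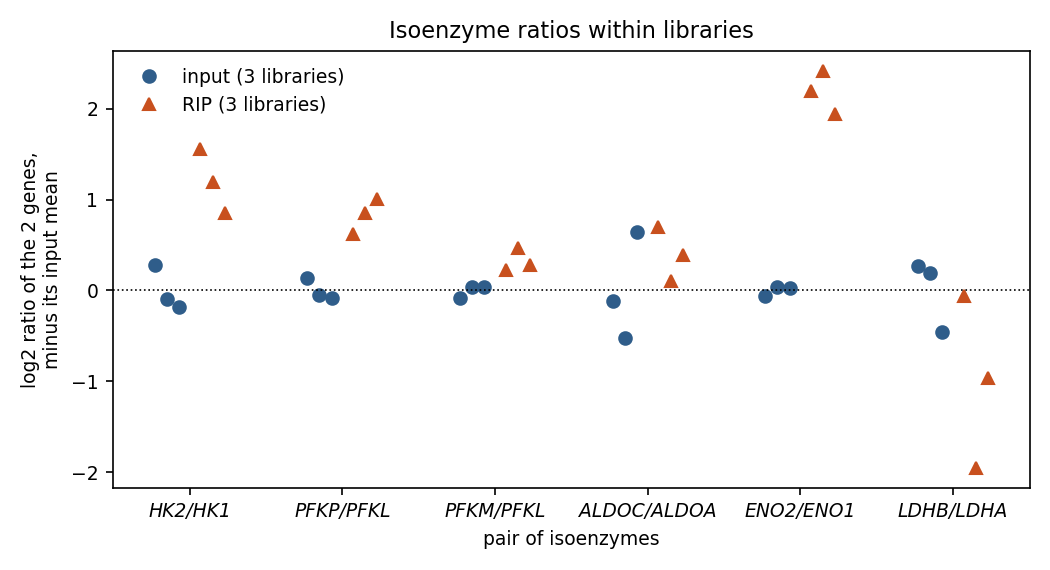
Log2 ratio of 2 isoenzyme mRNAs in each library, minus the mean of that ratio in input, for 3 input libraries (circles) and 3 RIP libraries (triangles). The RIP libraries lie above the inputs for HK2/HK1, PFKP/PFKL, PFKM/PFKL and ENO2/ENO1, and overlap them for ALDOC/ALDOA and LDHB/LDHA.

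The remaining glycolytic steps and isoenzymes went both ways. Of 18 genes on that list, 10 were tested, 5 lay below input and 1 above, against 21.2% and 22.4% of all tested genes. The median log2 fold of the list was -1.18. PKM, pyruvate kinase, had 7636, 8998 and 9420 in RIP and 24264, 25537 and 25597 in input, a log2 fold of -1.54 (SE 0.12, limma adjusted p = 1.7e-06). PGAM1, the phosphoglycerate mutase, stood at -1.38 (SE 0.17, limma adjusted p = 4.4e-05) and PFKM at -0.94 (SE 0.14, limma adjusted p = 0.00020). With PKM and PGAM1, every step from glucose 6-phosphate to lactate thus had at least 1 mRNA that lay below input. LDHB, at 121, 37.3 and 75.3 in RIP and 474, 492 and 317 in input, had a log2 fold of -2.57 (SE 0.46, limma adjusted p = 0.00064). ALDOC had -1.44 (limma adjusted p = 0.025), and was not called without RIP replicate 1 (-1.44), RIP replicate 3 (-1.41) or input replicate 3 (-1.07), or with scaling by totals (-0.95). With no filter on low values it was not called either (limma adjusted p = 0.058).

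ENO2 was the gene of that list above input, with 1280, 1726 and 1359 in RIP and 918, 1055 and 1082 in input. Its log2 fold was 0.51 (SE 0.17, limma adjusted p = 0.028), and the call was lost without RIP replicate 2 (0.38), input replicate 1 (0.43) or input replicate 2 (0.53). The call was also lost with no filter on low values (limma adjusted p = 0.075). PFKP (-0.43, limma adjusted p = 0.057), BPGM (0.29, adjusted p = 0.19), a mutase of bisphosphoglycerate, and ENO3 (-0.99, adjusted p = 0.47) did not pass the test. PFKP was called below input without RIP replicate 3 (log2 fold -0.57) and with a minimum mean of 1000 (limma adjusted p = 0.034). It was also called in the authors' deposited table (DESeq2 adjusted p = 0.045). With scaling by totals its log2 fold was 0.061 (limma adjusted p = 0.82, not called), while BPGM was called at 0.79. LDHC had 60.4, 0 and 56.4 in RIP and 134, 131 and 160 in input and was not called (limma adjusted p = 0.065), though it passed when RIP replicate 1, 2 or 3 was left out (-4.23, -1.26 and -4.18, values that lean on the pseudocount where a library is at 0). HKDC1 and PGK2 had no row under their symbols, and the other 6 genes were under the filter of a mean of 10 normalized counts.

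The mRNAs of enzymes that regulate phosphofructokinase or hexokinase were described as a list of their own. Of its 6 genes, 5 were tested, 2 lay above input and 0 below, against 22.4% and 21.2% of all tested genes. PFKFB3 makes an activator of phosphofructokinase, a fructose bisphosphate distinct from the product of phosphofructokinase. It had 3878, 3940 and 4261 in RIP and 2017, 1912 and 1673 in input. RIP held 2.16 times the input level, a log2 fold of 1.11 (SE 0.13, limma adjusted p = 2.6e-05). TIGAR, a phosphatase that lowers the same activator, stood at 0.68 (SE 0.21, limma adjusted p = 0.017), and was not called without RIP replicate 2 (0.53) or input replicate 3 (0.63). TIGAR was also not called with no filter on low values (limma adjusted p = 0.10). Against the derived mean of the 3 inputs that have no column of their own (1646 normalized counts), its RIP mean gave a log2 ratio of -0.38, the opposite direction. PFKFB2 (-0.093, limma adjusted p = 0.75), PFKFB4 (0.17, adjusted p = 0.56, called at 0.67 with scaling by totals) and PFKFB1 (adjusted p = 0.79, with 1 library of each group at 0) did not pass the test.

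Transport mRNAs were divided. Of 9 genes for glucose and lactate transport, 6 were tested, 1 lay above input and 2 below, against 22.4% and 21.2% of all tested genes. The glucose transporter SLC2A3 had 456, 523 and 442 in RIP and 297, 199 and 262 in input, a log2 fold of 0.92 (SE 0.27, limma adjusted p = 0.014), which was not called without input replicate 2 (0.76). SLC2A1, the main glucose transporter of proliferating cells, had 0.35 (limma adjusted p = 0.061, called above input in 6 of 16 alternatives, among them no filter at adjusted p = 0.029, the authors' deposited table at 0.014 and scaling by totals, which moved it to 0.84), SLC2A4 had 0.72 (adjusted p = 0.060, called without input replicate 2 at 0.91, with scaling by totals at 1.21 and by totals without mitochondrial genes at 0.86) and SLC16A7 had 0.086 (adjusted p = 0.90). The lactate carrier SLC16A1 lay below input at -0.63 (SE 0.12, limma adjusted p = 0.00086), but was not called with scaling by totals (-0.14). BSG, the chaperone of the lactate carriers, lay lower, with 2541, 3199 and 3270 in RIP and 10359, 11911 and 12378 in input, a log2 fold of -1.95 (SE 0.13, limma adjusted p = 9.6e-07).

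All 13 genes for the entry of pyruvate into the mitochondrion passed the test, 4 above and 9 below input. Of all tested genes, 22.4% were called above and 21.2% below. The subunits of the pyruvate dehydrogenase complex PDHA1, PDHB, DLAT and DLD had log2 folds of -0.98, -1.06, -0.71 and -0.65, and the pyruvate carriers MPC1 and MPC2 had -1.48 and -1.07. PDHX, the remaining subunit, had 0.41 (limma adjusted p = 0.045), and was not called without RIP replicate 1 (0.40) or 3 (0.32) or input replicate 2 (0.35) or 3 (0.36). With no filter on low values PDHX was not called (limma adjusted p = 0.14). The phosphatases that activate the complex, PDP1 and PDP2, lay above input at 1.63 (SE 0.13, limma adjusted p = 2.2e-06) and 1.23 (SE 0.17, limma adjusted p = 9.0e-05). PDP1 had 5199, 4879 and 4583 in RIP and 1776, 1531 and 1449 in input, which left a wide gap between the groups. The kinases that inactivate it went both ways: PDK4 had 1.44 (limma adjusted p = 0.0051), while PDK1, PDK2 and PDK3 had -1.32, -0.52 and -0.74. PDK2 was not called without RIP replicate 1 (-0.43) or input replicate 3 (-0.38), or with no filter on low values (limma adjusted p = 0.105). With scaling by totals DLAT (-0.21), DLD (-0.15), PDK2 (-0.029) and PDK3 (-0.25) were not called.

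With the authors' size factors, no gene of 3 neighbouring pathways was called above input; scaling by totals called H6PD (0.69) and PCK1 (1.85) above. In the pentose phosphate pathway 6 of 8 genes lay below input (median log2 fold -1.53), led by TKT (-1.83), TALDO1 (-1.76) and PGD (-1.62). In the citrate cycle 14 of 16 lay below input (median -1.07), among them MDH2 (-1.78) and SDHC (-1.46). In gluconeogenesis 3 of 5 tested genes lay below input, G6PC3 (-1.44), PCK2 (-1.13) and PC (-1.46). With scaling by totals IDH3A (0.14), DLST (-0.19), SUCLA2 (-0.21) and SDHD (-0.031) of the citrate cycle were no longer called. RPE (-0.031) of the pentose phosphate pathway also lost its call. With no filter on low values SUCLA2, SDHD and RPE were not called either (limma adjusted p = 0.065, 0.15 and 0.25). The counts are descriptions, to be read beside the 21.2% of all tested genes below input.

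**Figure D4:**
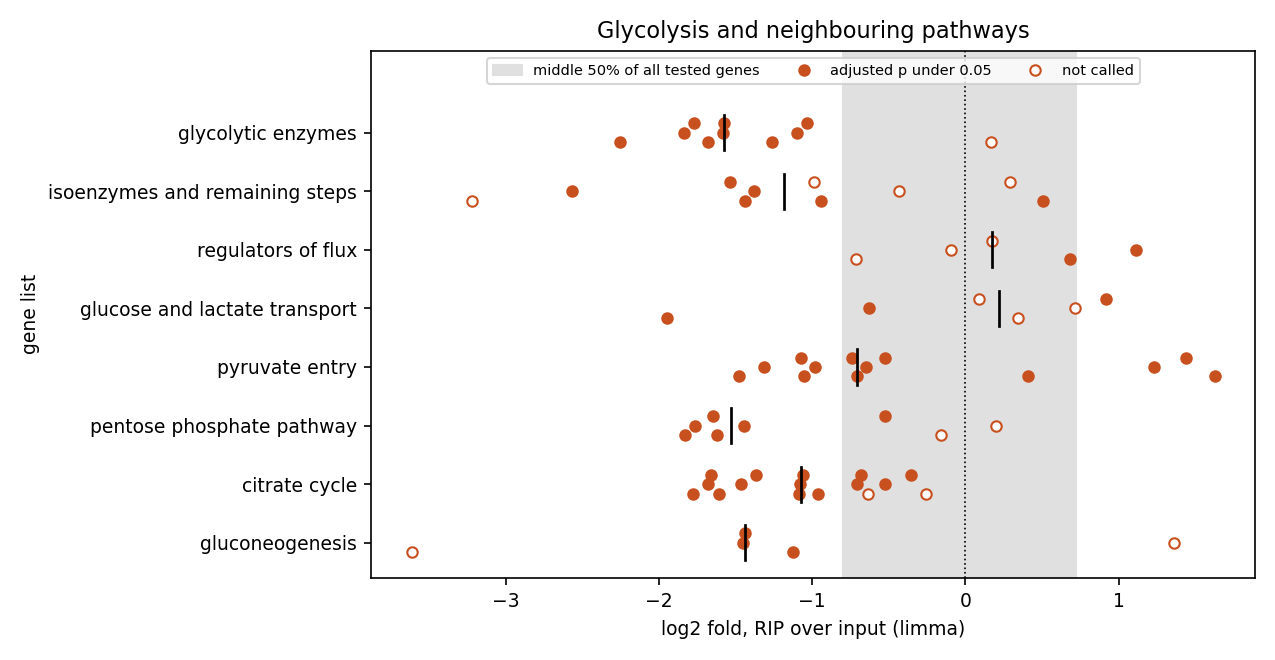
Log2 fold of RIP over input (limma, 3 against 3 libraries) for each tested gene of glycolysis and of 7 related lists; filled points passed the test, open points did not, black ticks are list medians and the grey band spans the middle 50% of all tested genes. The glycolytic enzymes, pentose phosphate and citrate cycle genes lie mostly left of the band, and the genes called above input belong to 4 lists, among them the regulators of flux and pyruvate entry.

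Several of the enzymes have processed pseudogenes with which short reads can be shared. Of 49 pseudogene rows, 5 passed the filter, and all 49 summed to 405 to 472 normalized counts in input and 147 to 351 in RIP. The 3 with the highest means were GAPDHP65, TPI1P2 and GAPDHP1. GAPDHP65 had 37.3, 104 and 25.9 in RIP and 128, 147 and 157 in input, a log2 fold of -1.61 (SE 0.59, limma adjusted p = 0.045). It was not called by edgeR (-1.38), nor without RIP replicate 1 (-1.45) or 3 (-1.19), nor without input replicate 1 (-1.69), 2 (-1.59) or 3 (-1.54). GAPDHP1 had 10.8, 16.4 and 14.9 in RIP and 104, 97.1 and 102 in input, a log2 fold of -2.79 (SE 0.70, limma adjusted p = 0.0063). TPI1P2 did not pass the test (0.11, limma adjusted p = 0.89). The summed pseudogene values were far smaller than those of GAPDH or TPI1 alone, and how many reads were shared was not tested.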

How the data were processed

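The table holds gene counts of 3 RIP and 3 input libraries (75 bp single-end reads); the authors' deposited values are a signal, each library's counts over its own size factor. Per the submitters' processing notes STAR, featureCounts and DESeq2 were used on GRCh38; their versions, the annotation and the strand setting were unstated. The authors' deposited log2 fold, its score (Wald statistic), p-value and adjusted p-value of RIP over input served as an alternative. Every value was a whole multiple of 1 read (within 0.01 of a read, 100% of values), so reads were recovered for edgeR 4.0.16 and DESeq2 1.42.0.

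Genes with a mean of at least 10 normalized counts (16765) were tested with limma 3.58.1 (trend) on log2(value + 1), with Benjamini-Hochberg adjustment over all of them. That scale can understate folds of low genes. Where a library is at 0 it can overstate them, as for LDHC (-3.22, against -1.86 in the authors' deposited results). Fits were tested on simulated data with few changed genes, as many up as down, and the same dispersion for every gene. Those simulations do not test the scaling between RIP and input in these data. Named were the members, all tested genes of 4 related lists, the 3 smallest p of 3 further lists and the 3 highest pseudogenes. One gene that this rule names, and one marker, are not reported here. Members and lists were chosen with earlier results of these data known. Alternatives covered pseudocount, filter, scaling, tool, threshold, replicate block and leaving out each library. Intervals of ratios come from 3 libraries per group.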

Additional observations from a re-analysis of the deposited data

How the results depend on the processing

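In 158 of 159 alternative values for the 10 glycolytic enzymes, direction and call were kept or, for HK2, no call was made; HK2 was called (0.66) when columns were scaled by their totals. The count below input was 8 or 9 in all 16 alternatives, 8 where ALDOA fell under a minimum mean of 1000. Scaling by totals gave 1 enzyme above input, 6155 genes above and 1655 below (3758 and 3550 with the authors' size factors) and 14 related genes above (8 with those factors). It left 28 related genes below input, against 39 with those factors. It also turned IDH3A from -0.35 to 0.14. At an adjusted p under 0.01, 4 related genes were above input. That scaling moved the median of all genes by 0.49. Totals without mitochondrially encoded genes moved it by 0.14 and gave 0 enzymes above and 9 below, and 4357 genes above and 2940 below. Of the related genes, 10 were then above and 35 below. Leaving out 1 library at a time gave 3121 to 3824 genes above and 2881 to 3719 below. The deviations of same-numbered RIP and input columns correlated at 0.255, 0.0025 and 0.239; since number 2 was not above 0.1, the numbers were not taken as pairs. Each RIP column correlated best with the input of its number, but input 2 correlated more with RIP 3 (0.026); with the replicate block 4053 genes lay above and 3925 below, and 9 enzymes below. In the isoenzyme ratios all 42 alternative values kept their direction. Libraries at 0 limit LDHC and PFKFB1, whose log2 folds moved from -3.22 to -2.43 and from -0.72 to -0.63 with a pseudocount of 5.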

Other observations

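The authors' deposited mean normalized count is an average over 9 libraries, so the mean of the 3 inputs without a column of their own could be derived, with no spread and no test. In these inputs HK1 was lower (2521 normalized counts, against 3887 in the input columns) and GAPDH and ENO1 were higher (134896 against 101905, and 36371 against 28834). HK2 was nearly level (3148 against 3079). Set against these inputs, the RIP mean of HK1 gave a log2 ratio of -0.37, that of GAPDH -2.66 and that of HK2 0.15, and the other 7 enzymes lay between -2.08 and -1.28. TIGAR, at 1646 in these inputs against 773 in the input columns, turned to a log2 ratio of -0.38, and BPGM, at 769 against 1323, gave 1.10. RPE, called below the input columns at -0.53, turned to 0.53. Among genes not called, PFKP (0.14), H6PD (-0.50) and SLC2A1 (-0.0078) changed direction as well.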
